A study of Mus musculus with 8 samples.

Results

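DNA replication genes and mitosis genes were examined in mCherry+CD73+ cells sorted from the femoral growth plates of Pthrp-mCherry mice that had received DMSO or SAG. The list holds 44 of the 16536 genes of the count table, 22 that act in DNA replication (S phase) and 22 that act in mitosis (G2/M), chosen by what their products are known to do. All 44 were in the table and all passed the filter on low counts, with a smallest count of 86 in any library. Pthrp-mCherry mice carry the fluorescent protein mCherry as a marker of cells that express Pthlh, the gene of parathyroid hormone-related protein, a marker of stem cells of the growth plate's resting zone. CD73, encoded by Nt5e, is a surface protein that the paper uses to mark both resting zone cells and early proliferative cells. It was stained with an antibody in the same sort, to leave out mCherry+ cells of articular cartilage and perichondrium. SAG, a small molecule that activates the membrane protein Smoothened and so the Hedgehog (Hh) pathway, or its vehicle DMSO was given i.p. each day over the days P30 to P36 by the design text, although the methods give a slightly later period, and the mice were sacrificed on day P38. The reporter was the same in both groups, and the sexes of the sequenced mice were not used here. Each library came from the cells of the 2 femurs of 1 mouse, with 4 mice per group, and the mice of the groups were different animals. The study asked what activation of the Hh pathway does to these cells, and the cell cycle genes bear on how much of the sorted RNA came from dividing cells.

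A cell that is to divide first loads the Mcm2 to Mcm7 helicase onto replication origins, a step called licensing, and then fires these origins in S phase, when DNA polymerases copy the genome and new nucleotides are made. In G2 and M phase the kinase Cdk1 with cyclins A and B starts mitosis, spindle and kinetochore proteins pull the chromosomes apart, and the ubiquitin ligase APC/C ends the phase by degrading cyclins. Genes of the first group are classical targets of E2F transcription factors, and genes of the second group are classical targets of the DREAM and B-Myb-FOXM1 complexes, which act through a promoter element called CHR, often next to a CCAAT box. Resting zone cells of the growth plate are known to divide slowly, while their descendants in the columns divide quickly.

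The promoters of the members were searched for these elements. A window from 250 bases before to 50 bases after the RefSeq start site (GRCm38.p6) was found for 36 of the 44 genes, 18 in each subgroup, and no window was used for Mcm4, Gins2, Gmnn, Ccne2, Ccna2, Aurkb, Foxm1, and Tpx2. An E2F site was searched as TTTCCCGC, TTTGGCGC, TTTCGCGC, or TTTGCCGC, a CHR as TTTGAA or TTTAAA, and a CCAAT box as CCAAT, all on both strands. Sites of different kinds were counted separately where they overlapped. Some genes had several windows (32851 windows for 27025 genes), and a gene was counted if any of its windows held the letters. Mcm7 and Uhrf1 had windows both with and without E2F letters, and Uhrf1 also both with and without CHR letters. E2F letters were present in 9 of 18 replication promoters (50%), in 1 of 18 mitosis promoters (5.56%, Cdk1), and in 2.61% of the 27025 genes with a window. CHR letters were present in 16 of 18 mitosis promoters (88.9%), in 6 of 18 replication promoters (33.3%), and in 30.6% of all genes. CCAAT boxes were present in 88.9% of mitosis promoters, 72.2% of replication promoters, and 41.1% of all genes. The median GC content of the windows was 58.0% for replication genes, 59.7% for mitosis genes, and 52.7% for all genes. The 200 bases before the start of 2 replication and 3 mitosis genes are shown 5′ to 3′ on the strand of the gene, because they show both arrangements side by side. Capitals mark E2F, CHR, and CCAAT letters on either strand, and a match is a description of the letters and not evidence that a factor binds there.
Mcm5 (chr8:75109309-75109508, plus strand): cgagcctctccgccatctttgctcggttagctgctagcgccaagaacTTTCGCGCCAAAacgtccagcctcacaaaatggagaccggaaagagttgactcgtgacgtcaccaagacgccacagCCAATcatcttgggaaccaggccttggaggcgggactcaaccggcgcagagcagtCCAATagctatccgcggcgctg
Mcm6 (chr1:128359706-128359905, minus strand): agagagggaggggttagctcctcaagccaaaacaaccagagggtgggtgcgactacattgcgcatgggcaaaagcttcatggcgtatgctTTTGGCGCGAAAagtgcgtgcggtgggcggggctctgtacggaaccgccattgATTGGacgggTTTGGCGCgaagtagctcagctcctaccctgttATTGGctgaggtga
Cdk1 (chr10:69352913-69353112, minus strand): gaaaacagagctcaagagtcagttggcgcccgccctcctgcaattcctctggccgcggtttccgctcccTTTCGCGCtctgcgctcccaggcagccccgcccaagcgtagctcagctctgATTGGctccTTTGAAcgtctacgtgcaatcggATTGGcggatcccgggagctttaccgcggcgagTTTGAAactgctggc
Cdc20 (chr4:118437344-118437543, minus strand): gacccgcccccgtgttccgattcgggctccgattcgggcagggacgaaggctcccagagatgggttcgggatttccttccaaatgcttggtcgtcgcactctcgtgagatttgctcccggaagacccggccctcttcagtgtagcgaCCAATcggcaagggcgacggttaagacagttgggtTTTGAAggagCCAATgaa
Mki67 (chr7:135716380-135716579, minus strand): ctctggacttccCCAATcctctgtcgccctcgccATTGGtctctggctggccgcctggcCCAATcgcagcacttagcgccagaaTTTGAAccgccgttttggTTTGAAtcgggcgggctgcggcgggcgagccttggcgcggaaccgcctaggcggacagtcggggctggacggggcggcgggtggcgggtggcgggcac
In the stretch of Mcm5, 2 overlapping E2F matches lay upstream of 2 CCAAT boxes, and that of Mcm6 held 3 E2F matches and 2 CCAAT boxes. The stretch of Cdk1 held 1 E2F match, 2 CHR matches, and 2 CCAAT boxes. The stretches of Cdc20 and Mki67 held 1 and 2 CHR matches, with 2 and 3 CCAAT boxes, and no E2F match.

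The 8 libraries held between 24971992 and 46593090 counts. Levels are given as CPM, that is counts divided by the TMM-scaled library size, and a count of 3 equals 0.0669 to 0.114 CPM, a floor that covers counting error only. DMSO replicate 4 stood apart, with the smallest total, the fewest detected genes (14416), and a Spearman's rho to the other DMSO-treated mice of 0.834 to 0.868, so results are also given without it. The sorted cells had the markers of the labelled tissue, since the 10 chondrocyte markers, among them Col2a1, summed to between 17231 and 99961 CPM per mouse. Of the resting zone markers, Nt5e lay between 149 and 270 CPM, Pthlh between 14.9 and 29.9 CPM, and Sfrp5 between 18.6 and 77.8 CPM. Their log2 fold changes were -0.51, 0.37, and -1.13 (edgeR adjusted p = 0.186, 0.606, and 0.121). DESeq2 called 1 of these 3 lower and limma voom called 1. RNA of blood cells was present in every library. Gli1 and Ptch1, genes that Hh signaling is known to induce, were at 44.8 ± 14.8 and 340 ± 131 CPM with DMSO and at 15.98 ± 6.69 and 147 ± 48.0 CPM with SAG (mean ± SD over 4 mice). Their log2 fold changes were -1.49 and -1.21 (edgeR, adjusted p = 0.0569 and 0.0859), so these targets were not higher in the libraries labelled SAG. In bulk RNA of sorted cells, fewer cells in the cycle and less RNA of these genes per cell cannot be told apart.

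No replication gene and no mitosis gene passed the test between DMSO- and SAG-treated mice. By edgeR's quasi-likelihood test, an adjusted p under 0.05 was reached by 0 of the 44 genes, 0 had an unadjusted p under 0.05, and the smallest adjusted p was 0.408 (E2f1). Among all 15421 genes tested, 2.62% were called higher and 0.266% lower in SAG-treated mice, and 9.58% and 6.5% had an unadjusted p under 0.05 in these directions. The groups overlapped in all 44 members, whereas the 4 SAG-treated mice lay above all DMSO-treated mice in 7.9% of all genes and below them in 3.84%. The median log2 fold change was -0.02 for replication genes, with 11 of 22 positive, and 0.22 for mitosis genes, with 19 of 22 positive. Over all genes tested the median was -0.08, with 45.2% positive. DESeq2's Wald test also called 0 of the 44 genes and gave 0 an unadjusted p under 0.05, where it called 5.01% of all genes higher and 2.55% lower and gave 9.58% and 8.75% an unadjusted p under 0.05. limma voom with sample quality weights called 0 members, where it called 6.37% of all genes higher and 2.52% lower. It gave Gmnn, Ccnb2, Bub1, and Nusap1 (higher) and Cdc45 (lower) an unadjusted p under 0.05, with a smallest adjusted p of 0.140, and 13% and 10.9% of all genes in these directions.

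These tests leave room for moderate differences. The 95% interval of the log2 fold change lay between -1 and 1 for 22 of 44 members, against 24.7% of all genes. A doubling in SAG-treated mice was outside the interval of 29 members and a halving was outside that of 36. For replication genes these counts were 17 and 15 of 22, and for mitosis genes 12 and 21 of 22.

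**Figure D1:**
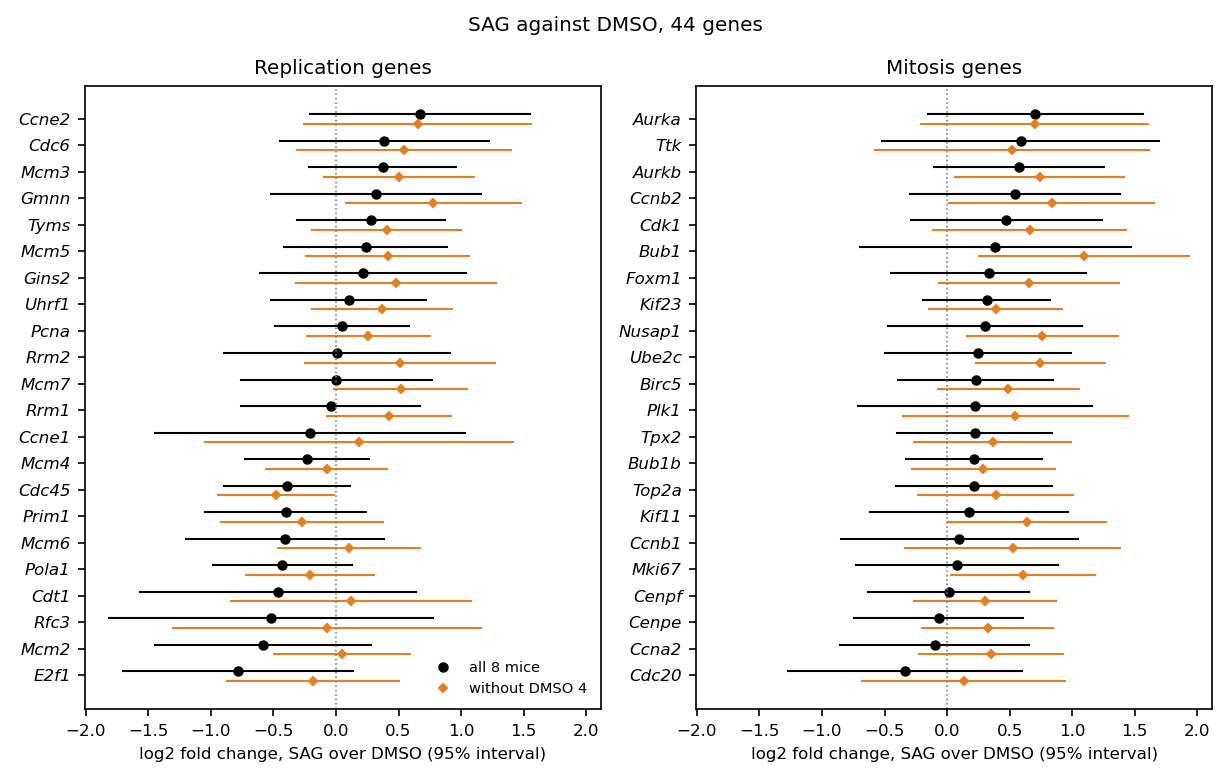
Log2 fold changes of SAG over DMSO (x axis) with 95% intervals for the 22 replication genes (left) and the 22 mitosis genes (right), from edgeR with all 8 mice (black circles) and without DMSO replicate 4 (orange diamonds). With all mice every interval crosses 0. Without DMSO replicate 4 all 22 mitosis genes have a positive estimate, and without DMSO replicate 1 (not drawn) 14 do.

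Licensing and helicase genes were expressed in all 8 mice at levels that overlapped between the groups. The 6 subunits Mcm2 to Mcm7 had mean levels of 51.2 to 119 CPM in DMSO-treated and 60.4 to 97.7 CPM in SAG-treated mice, and their log2 fold changes ran from -0.58 (Mcm2) to 0.37 (Mcm3). Levels per kilobase of exon were 12.8 to 25.5 CPM per kb in DMSO-treated and 10.8 to 26.0 CPM per kb in SAG-treated mice. The length used is that of all annotated exons of a gene together, so levels per length compare genes only roughly. Mcm2 was at 61.8, 71.7, 88.1, and 227 CPM in DMSO replicates 1 to 4 and at 48.0, 82.9, 99.8, and 68.8 CPM in SAG replicates 1 to 4. DMSO replicate 4 was far above the other 7 mice, which overlapped. Its log2 fold change was -0.58 (standard error 0.39, edgeR adjusted p = 0.537), and 0.05 without DMSO replicate 4. Mcm3 was at 59.7, 62.4, 89.1, and 90.7 CPM in DMSO-treated and at 90.6, 134, 109, and 57.6 CPM in SAG-treated mice. SAG replicates 2 and 3 were the highest mice and SAG replicate 4 the lowest (log2 fold change 0.37, standard error 0.27, edgeR adjusted p = 0.563).

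Cdc6 and Cdt1 load the Mcm ring and Gmnn (geminin) inhibits Cdt1 once S phase has begun. Their mean levels were 18.2, 28.4, and 20.5 CPM in DMSO-treated and 23.8, 20.6, and 25.5 CPM in SAG-treated mice. Cdt1 had the widest range of all members among DMSO-treated mice, with 9.63 CPM in replicate 1 and 55.5 CPM in replicate 4. Cdc45 and Gins2 complete the active helicase. Cdc45 was at 89.3, 120, 107, and 72.3 CPM in DMSO replicates 1 to 4 and at 66.5, 96.4, 55.8, and 77.9 CPM in SAG replicates 1 to 4. It did not follow the other replication genes, since DMSO replicate 2 was highest and DMSO replicate 4 was the lowest of its group (log2 fold change -0.39, standard error 0.23, edgeR adjusted p = 0.462). Gins2 averaged 22.4 CPM in DMSO-treated and 26.0 CPM in SAG-treated mice.

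At the replication fork, Pola1 and Prim1 encode subunits of the polymerase alpha-primase that starts new strands, Rfc3 a subunit of the clamp loader, and Pcna the sliding clamp. Pola1 was at 45.6, 39.1, 64.2, and 77.7 CPM in DMSO-treated and at 46.3, 46.5, 39.4, and 35.9 CPM in SAG-treated mice. DMSO replicates 3 and 4 lay above all SAG-treated mice and DMSO replicates 1 and 2 did not (log2 fold change -0.43, standard error 0.25, edgeR adjusted p = 0.465). Prim1 averaged 30.3 and 22.9 CPM, and Rfc3, the replication gene with the lowest level per length, 8.82 and 6.14 CPM in DMSO- and SAG-treated mice. Pcna, chosen for its common use as a proliferation marker after its values had been seen, was at 50.9, 35.5, 62.3, and 76.5 CPM in DMSO-treated and at 60.2, 61.2, 56.9, and 54.3 CPM in SAG-treated mice. The SAG-treated mice lay close together within the range of the DMSO-treated mice (log2 fold change 0.05, 95% interval -0.48 to 0.58, edgeR adjusted p = 0.955). Uhrf1, which keeps DNA methylation in place behind the fork, averaged 58.4 and 62.6 CPM.

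Rrm1 and Rrm2, the subunits of ribonucleotide reductase, and Tyms, thymidylate synthase, make nucleotides for the fork. Rrm2 had the highest level per length of the replication genes, 49.5 CPM per kb in DMSO-treated and 49.8 CPM per kb in SAG-treated mice, and a log2 fold change of 0.01 (95% interval -0.90 to 0.92). Rrm1 averaged 125 and 121 CPM and Tyms 23.4 and 28.4 CPM. Means that were nearly equal stood beside a wide spread between mice, with 59.5 to 252 CPM of Rrm2 among DMSO-treated and 95.9 to 218 CPM among SAG-treated mice.

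E2f1 and the E-type cyclins Ccne1 and Ccne2 drive entry into S phase. E2f1 was at 14.4, 18.9, 25.8, and 57.6 CPM in DMSO replicates 1 to 4 and at 16.8, 21.8, 14.6, and 14.6 CPM in SAG replicates 1 to 4. DMSO replicates 3 and 4 lay above all SAG-treated mice, and DMSO replicate 1 lay below them. The log2 fold change of E2f1, the lowest of the 44 genes, was -0.78 (standard error 0.42, edgeR adjusted p = 0.408) and became -0.19 without DMSO replicate 4. Ccne2 had the highest estimate of the replication genes, with 9.54, 17.7, 17.4, and 13.0 CPM in DMSO-treated and 10.1, 20.4, 34.4, and 26.8 CPM in SAG-treated mice. SAG replicates 2 to 4 lay above all DMSO-treated mice and SAG replicate 1 did not (log2 fold change 0.67, standard error 0.40, edgeR adjusted p = 0.472). Ccne1 averaged 23.1 ± 15.8 CPM with DMSO and 19.997 ± 12.02 CPM with SAG (SD over 4 mice).

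Mitosis genes had positive estimates in 19 of 22 cases, the exceptions being Ccna2, Cdc20, and Cenpe, and 0 of them passed the test. Mki67, which encodes the proliferation antigen Ki-67, and Top2a, the topoisomerase that untangles sister chromosomes, were described for their common use as markers after their values had been seen. Mki67 had the highest level per length of all 44 genes, 142 CPM per kb in DMSO-treated and 149 CPM per kb in SAG-treated mice. Its level was 646, 1039.6, 1334, and 2678 CPM in DMSO replicates 1 to 4 and 1301, 1669.6, 1904, and 1142 CPM in SAG replicates 1 to 4. The SAG-treated mice lay inside the range set by DMSO replicates 1 and 4 (log2 fold change 0.08, 95% interval -0.73 to 0.89, edgeR adjusted p = 0.952). Top2a was at 173, 321, 395, and 422 CPM in DMSO-treated and at 327, 528, 379.7, and 285 CPM in SAG-treated mice, with a log2 fold change of 0.21 (95% interval -0.41 to 0.84).

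Cdk1 is the kinase of mitotic entry, with Ccna2, Ccnb1, and Ccnb2 as its cyclins. Cdk1 was at 20.3, 49.9, 26.6, and 47.2 CPM in DMSO-treated and at 37.7, 62.9, 66.2, and 32.9 CPM in SAG-treated mice. SAG replicates 2 and 3 were the highest mice (log2 fold change 0.47, standard error 0.35, edgeR adjusted p = 0.578). Ccnb2 was at 15.5, 36.9, 58.7, and 66.7 CPM in DMSO-treated and at 74.4, 61.6, 76.8, and 46.0 CPM in SAG-treated mice. SAG replicates 1 and 3 lay above all DMSO-treated mice (log2 fold change 0.54, standard error 0.38, edgeR adjusted p = 0.558). Ccna2 averaged 68.2 and 63.6 CPM and Ccnb1 40.5 and 43.3 CPM in DMSO- and SAG-treated mice. Foxm1, the transcription factor of late cell cycle genes, averaged 47.7 and 60.1 CPM.

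Aurkb and Aurka had the smallest p-values of the mitosis genes. Aurka, which acts at centrosomes and spindle poles, was at 15.7, 24.9, 45.4, and 25.8 CPM in DMSO replicates 1 to 4 and at 58.6, 52.4, 51.4, and 19.8 CPM in SAG replicates 1 to 4. SAG replicates 1 to 3 lay above all DMSO-treated mice and SAG replicate 4 below all but DMSO replicate 1 (log2 fold change 0.70, the highest of the 44 genes, standard error 0.39, edgeR adjusted p = 0.427). Aurkb, the kinase of the chromosomal passenger complex, was at 20.7, 14.7, 15.1, and 23.6 CPM in DMSO-treated and at 26.8, 34.8, 17.6, and 31.1 CPM in SAG-treated mice. SAG replicate 3 was the only SAG-treated mouse within the DMSO range (log2 fold change 0.57, standard error 0.31, edgeR adjusted p = 0.409). Ttk, a kinase of the spindle checkpoint and the member with the lowest level per length in DMSO-treated mice (1.47 CPM per kb), was at 10.9, 7.30, 5.07, and 5.69 CPM in DMSO-treated and at 10.9, 19.2, 8.50, and 5.04 CPM in SAG-treated mice. SAG replicate 2 was highest and the other mice overlapped (log2 fold change 0.59, standard error 0.50, edgeR adjusted p = 0.650). The checkpoint genes Bub1 and Bub1b and the kinase Plk1 averaged 17.0, 97.9, and 24.5 CPM in DMSO-treated and 22.1, 114, and 28.5 CPM in SAG-treated mice. Birc5 (survivin), a partner of Aurkb, averaged 85.1 and 99.6 CPM.

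Motor and spindle genes showed the same overlap. Kif23, a kinesin of cytokinesis, was at 62.4, 88.7, 111, and 97.9 CPM in DMSO-treated and at 103, 153, 99.5, and 91.2 CPM in SAG-treated mice. SAG replicate 2 was highest and DMSO replicate 1 lowest (log2 fold change 0.32, standard error 0.23, edgeR adjusted p = 0.577). Kif11, the kinesin that separates spindle poles, averaged 65.8 and 74.2 CPM, and Cenpe, the kinesin of kinetochores, 186 and 178 CPM. Cenpf, a kinetochore protein, averaged 298 and 301 CPM, Tpx2, which activates Aurka on the spindle, 130 and 152 CPM, and Nusap1, which bundles spindle microtubules, 82.1 and 101 CPM. Cdc20 and Ube2c, the activator and the ubiquitin-conjugating enzyme of the APC/C, averaged 34.9 and 126 CPM in DMSO-treated and 27.6 and 150.03 CPM in SAG-treated mice.

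The members varied widely among the mice of a group. Among DMSO-treated mice the highest value of a member was 1.45 to 5.76 times the lowest, with a median of 3.14. Among SAG-treated mice these ratios ran from 1.13 to 3.80, with a median of 1.79. The SD of the log2 level was larger among DMSO-treated mice for 36 of 44 members (81.8%) and for 69.2% of all genes tested. DMSO replicate 1 was the lowest of the 8 mice for 29 of 44 members, 20 of them mitosis genes, and for 15.5% of all genes. DMSO replicate 4 was the highest for 26 of 44 members, 15 of them replication genes, and for 21.02% of all genes. SAG replicate 2 came next, with 9 of 44 members (20.5%), 8 of them mitosis genes, and 14.9% of all genes.

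**Figure D2:**
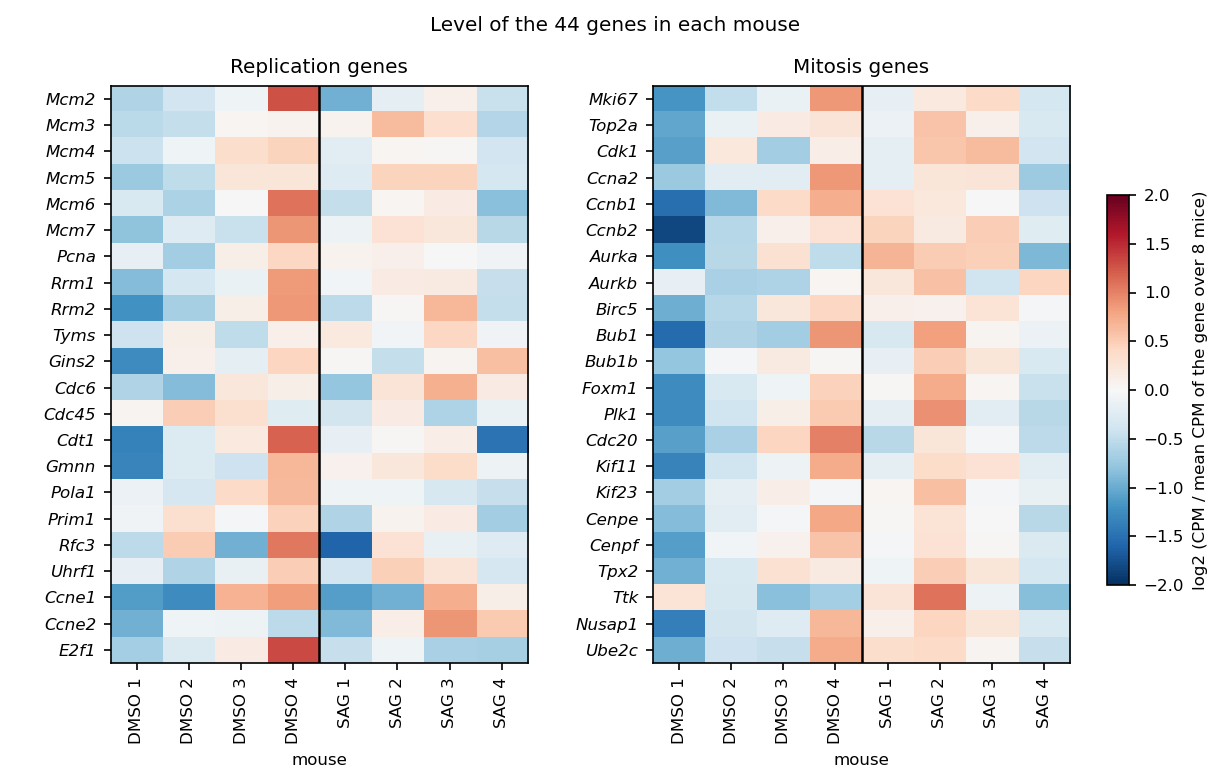
Level of each replication gene (left) and mitosis gene (right) in each of the 8 mice, coloured by the log2 ratio of its CPM to the mean CPM of that gene over all mice, with DMSO-treated mice left of the line and SAG-treated mice right of it. DMSO replicate 1 is lowest for 29 of the 44 genes and DMSO replicate 4 highest for 26.

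The mean log2 CPM of the replication genes was 4.78, 5.13, 5.42, and 6.003 in DMSO replicates 1 to 4 and 5.04, 5.50, 5.61, and 5.11 in SAG replicates 1 to 4. The groups overlapped, and their means differed by -0.02 on this log2 scale. The mean log2 CPM of the mitosis genes was 5.19, 5.85, 6.14, and 6.63 in DMSO-treated and 6.24, 6.69, 6.36, and 5.85 in SAG-treated mice. These groups overlapped too, and the mean was 0.33 higher with SAG. Within a mouse, the mitosis mean exceeded the replication mean by 0.41, 0.72, 0.72, and 0.62 in DMSO-treated and by 1.196, 1.19, 0.75, and 0.74 in SAG-treated mice. SAG replicates 1 and 2 stood well above the other 6 mice, while SAG replicates 3 and 4 lay just above DMSO replicates 2 and 3. The difference between the groups in this measure was 0.35, and it is given as a description with no test. With 1 mouse left out at a time it ran from 0.28 to 0.43.

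**Figure D3:**
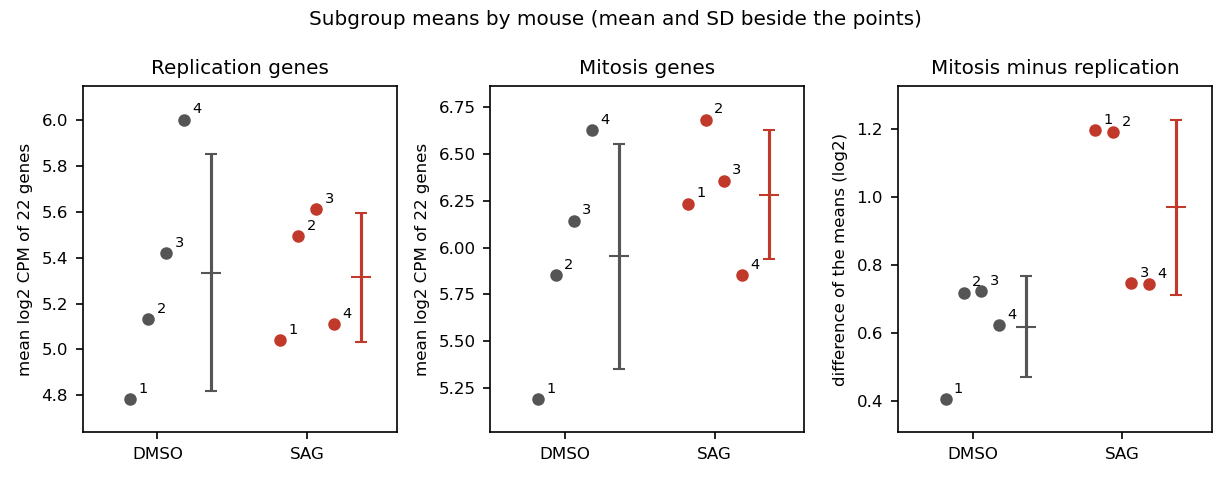
Mean log2 CPM of the 22 replication genes, of the 22 mitosis genes, and the difference of these means in each mouse (y axes, log2), with DMSO in grey, SAG in red, and the replicate number beside each point. Bars beside the points give the mean and SD of 4 mice, and the groups overlap in the first and second panels and narrowly do not in the third.

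These estimates moved when DMSO replicate 1 or 4 was left out. Without DMSO replicate 1, the lowest mouse for most members, the median log2 fold change was -0.24 for replication genes, with 8 of 22 positive. It was 0.04 for mitosis genes, with 14 of 22 positive, and the mean log2 CPM of the mitosis genes differed by 0.08. At an unadjusted p under 0.05 edgeR then gave 0 members higher, against 9.05% of all genes, and E2f1 lower. The share of all genes lower was not computed for this setting, and with all mice it was 6.5%. Without DMSO replicate 4, the highest mouse for most members, the median log2 fold change was 0.31 for replication genes, with 16 of 22 positive. It was 0.54 for mitosis genes, with 22 of 22 positive, while the median over all genes was -0.02, with 48.7% positive. The difference of the mean log2 CPM was then 0.23 for replication genes and 0.58 for mitosis genes. Again 0 of 44 members had an adjusted p under 0.05 in edgeR, where 6.44% of all genes were called higher and 2.17% lower. Unadjusted p-values under 0.05 were reached by 7 mitosis genes (Mki67, Ccnb2, Aurkb, Bub1, Kif11, Nusap1, and Ube2c) and by Gmnn, all higher, and by Cdc45, lower. In all genes 12.9% and 9.58% reached this in the respective directions. Ube2c had the smallest adjusted p of the members, 0.0760, with a log2 fold change of 0.74 (standard error 0.24) against 0.25 (standard error 0.34) with all mice. In Gmnn and Bub1 the SAG-treated mice then all lay above the 3 remaining DMSO-treated mice, as they did in 13.1% of all genes, and 0 members lay below, against 10.1% of all genes.

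Other genes of the cell cycle, from lists with no member in common with the 44, also gave 0 calls in edgeR. Among the 204 tested, an unadjusted p under 0.05 was found for 10 higher and 3 lower genes (4.90% and 1.47%, against 9.58% and 6.5% of all genes), and the median log2 fold change was 0.16, with 68.6% positive. DESeq2 called 1 of them (Pold2, lower), and limma voom called 8, all higher (3.92%, against 6.37% of all genes). Without DMSO replicate 4 edgeR called 10, all higher, against 6.44% of all genes. With all mice, the SAG-treated mice lay above all DMSO-treated mice for 5 of the 204 genes and below them for 2. Among all genes tested these shares were 7.9% and 3.84%. Lists of replication had medians near or below that of all genes, -0.13 for 19 genes of origin licensing and firing, -0.01 for 21 genes of the replication fork and nucleosome assembly, and -0.44 for 6 genes of nucleotide synthesis. Pold2, a subunit of polymerase delta, gave the smallest p in the whole set, with 16.6, 23.2, 26.8, and 36.8 CPM in DMSO-treated and 13.7, 9.13, 14.4, and 9.85 CPM in SAG-treated mice. The groups did not overlap (log2 fold change -1.14, standard error 0.34, edgeR adjusted p = 0.106, DESeq2 adjusted p = 0.0184). Orc2, of the origin recognition complex, and Dtymk, thymidylate kinase, had log2 fold changes of -0.86 and -0.58 (edgeR adjusted p = 0.258 and 0.267). Rfc2, a subunit of the clamp loader, had a log2 fold change of 0.67 (edgeR adjusted p = 0.256), and the fork list held 2 higher genes and 1 lower gene at an unadjusted p under 0.05.

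Lists of mitosis had positive medians, 0.30 for 21 genes of the kinetochore and spindle checkpoint, 0.12 for 20 spindle motors and microtubule proteins, 0.24 for 14 genes of condensin, cohesin control, and the passenger complex, and 0.13 for 22 genes of mitotic entry, exit, and cytokinesis. All 14 genes of the condensin, cohesin, and passenger list had positive estimates, and 0 genes of these lists of mitosis were called by edgeR or DESeq2, while limma voom called 1 (Cenpu, higher). The 14 E2F, Myb, and DREAM factors had the highest median of the lists, 0.41, with 13 positive, 3 at an unadjusted p under 0.05, and 0 called by edgeR or DESeq2. limma voom gave 7 of the 14 an unadjusted p under 0.05 and called 3 of them higher (E2f2, Rb1, and Lin54, the first and second named after their values had been seen), with a smallest adjusted p of 0.0194. Lin54, the DREAM subunit that binds the CHR, was at 42.6, 44.8, 47.1, and 59.3 CPM in DMSO-treated and at 60.1, 93.0, 67.4, and 97.2 CPM in SAG-treated mice. The groups did not overlap (log2 fold change 0.71, standard error 0.22, edgeR adjusted p = 0.122, limma voom adjusted p = 0.0409). E2f3, an activating E2F, was at 14.8, 8.89, 17.996, and 9.72 CPM in DMSO-treated and at 23.7, 21.7, 21.7, and 22.7 CPM in SAG-treated mice, again without overlap (log2 fold change 0.81, standard error 0.32, edgeR adjusted p = 0.245). Of the 14 factors 3 lay above without overlap, against 7.9% of all genes.

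Replication-dependent histone genes, which are transcribed in S phase to package new DNA, were measured because the libraries were made from total RNA. Their summed level was 7543, 12419, 14953, and 23415 CPM in DMSO replicates 1 to 4 and 12022, 20371, 19496, and 13562 CPM in SAG replicates 1 to 4. DMSO replicate 1 was lowest and DMSO replicate 4 highest of the 8 mice. Of 67 tested histone genes 0 were called by edgeR or DESeq2 and 4 by limma voom, 3 were higher at an unadjusted p under 0.05 in edgeR, and the median log2 fold change was 0.21. Copies of these genes are nearly identical, so values of single copies are uncertain.

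Markers of cell types also differed between the mice. Within each group the summed level of the 10 chondrocyte markers put the mice in the reverse order of their mitosis mean. It was 99961, 87799, 76273, and 44313 CPM in DMSO replicates 1 to 4 and 45822, 17231, 41534, and 48634 CPM in SAG replicates 1 to 4. All 10 markers had a negative log2 fold change and an unadjusted p under 0.05 in edgeR, 0 of them with an adjusted p under 0.05. DESeq2 called 6 of the 10 lower and limma voom called 9. Early neutrophil precursors divide in the marrow, and their 6 markers, among them Mpo and Elane, summed to 424, 305, 956, and 1504 CPM in DMSO-treated and to 2446, 1043.5, 727, and 815 CPM in SAG-treated mice. SAG replicate 1 was highest and the groups overlapped, with 1 of 6 markers called higher (Fcnb). The 9 markers of maturing neutrophils summed to between 4404 and 12327 CPM in DMSO-treated and between 23805 and 40332 CPM in SAG-treated mice. Of these markers 9 of 9 were called higher by edgeR. DMSO replicate 4 and SAG replicate 2 had the highest sum of their groups, as they had the highest mitosis mean. The marker lists were chosen with earlier results of these data known, and edgeR called 2.62% of all genes higher and 0.266% lower. B lineage markers summed to between 80.4 and 396 CPM in DMSO-treated and between 17.5 and 42.1 CPM in SAG-treated mice, with 3 of 9 tested called lower by edgeR, 7 by DESeq2, and 2 by limma voom. Erythroid markers summed to between 1084.5 and 10034 CPM in DMSO-treated and between 557 and 6004 CPM in SAG-treated mice, with 0 of 11 called by edgeR, DESeq2, or limma voom and 0 at an unadjusted p under 0.05 by edgeR. DMSO replicate 4 had the highest B lineage and erythroid sums of all 8 mice. The part of these cell types in the levels of the replication and mitosis genes was not tested.

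**Figure D4:**
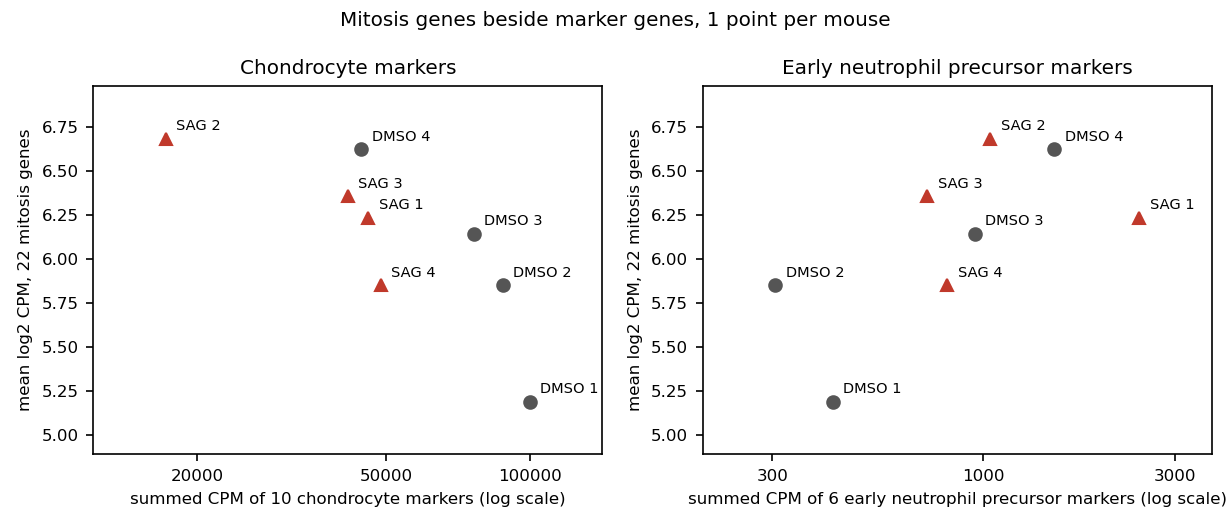
Mean log2 CPM of the 22 mitosis genes (y axis) against the summed CPM of 10 chondrocyte markers (left) and of 6 early neutrophil precursor markers (right, both x axes on a log scale), 1 point per mouse, with DMSO as grey circles and SAG as red triangles. Within each group the mouse with fewer chondrocyte marker counts has the higher mitosis mean. DMSO replicate 4 has the highest neutrophil precursor sum and the highest mitosis mean of its group. SAG replicate 1 has the highest precursor sum of its group without the highest mitosis mean. The part of either cell type in the mitosis mean was not tested.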

How the data were processed

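Sorted mCherry+CD73+ cells of 8 mice, 4 given DMSO and 4 given SAG, were analysed by total RNA sequencing. The authors deposited raw counts per gene and library, whole numbers without normalization, and the submitters' processing notes name kallisto, DESeq2, and the build GRCm38, with versions not given in the sources used here. Libraries were matched to mice by their labels, with 0 left over, and each mouse has its own library of 24971992 to 46593090 counts.

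Counts were compared in R 4.3.3 with edgeR 4.0.16 (filterByExpr, TMM, robust quasi-likelihood test, Benjamini-Hochberg adjustment over 15421 genes, threshold 0.05). CPM values are scaled by TMM, with 2 as the prior count for log2 CPM. Standard errors were derived from the test, as the absolute log2 fold change divided by the square root of its F statistic, and are approximate. Intervals are the estimate plus or minus this standard error times the t quantile of the fit. Alternatives were DESeq2 1.42.0, limma 3.58.1 (voom), other scalings and filters, a replicate block, and each mouse left out. The fits were tested on simulated data. Exon lengths came from GENCODE M21, as the union of all annotated exons of a gene, which can exceed the length of its main transcript. Members and lists were chosen with earlier results of these data known. All members are named, and values per mouse are given for the 6 with the smallest p of each subgroup, since 0 were called, and for Mki67, Top2a, and Pcna. Of each other cell cycle list at most 2 genes with the smallest edgeR p are named. E2f2 and Rb1 were named in addition, after their values had been seen.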

Additional observations from a re-analysis of the deposited data

Results flagged for a closer look

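Mcm2, the helicase subunit, was at 227 CPM in DMSO replicate 4 against 88.1 CPM in the nearest DMSO-treated mouse, a gap of 0.841 of the range of its group. This was the only value past the 95% critical value of Dixon's test among the 82 groups of 4 mice examined (the members with values per mouse, the subgroup means, and the summed lists). Chance alone gives about 1 in 20, or 4.1 of these 82 groups, so 1 is no more than chance gives. The same library was the highest of all 8 mice for 26 of the 44 members and had the smallest total count. The log2 fold change of Mcm2 was -0.58 with this mouse and 0.05 without it.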

How the results depend on the processing

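The counts of 0 replication and 0 mitosis genes with an adjusted p under 0.05 stayed at 0 in each direction under all 16 alternatives (DESeq2, limma voom, 2 other scalings, 2 other filters, the replicate block, mitochondrial and hemoglobin genes removed, and each of the 8 mice left out). All genes called higher (404) and lower (41) became 812 and 413 with DESeq2 and 982 and 388 with limma voom. The lower genes became 87 with at least 10 counts in every sample and 18 with the replicate block, and with 1 mouse left out the counts ran from 80 to 1017 higher and from 4 to 343 lower, with both ends of the higher counts in DMSO replicates 2 and 4. Other cell cycle genes called higher (0) became 8 with limma voom and 0 to 10 with 1 mouse left out (10 without DMSO replicate 4), and those called lower (0) became 1 with DESeq2. Members that lay above without overlap numbered 0 to 2 with 1 mouse left out. There were 2 without DMSO replicate 4, where 13.1% of all genes lay above, and 2 without SAG replicate 4. The share of all genes was not computed with any other mouse left out, so those counts have no background. CHR letters were in 61.1% of mitosis promoters when the 250 bases before the start were searched alone, against 88.9%. With 1 mouse left out, the log2 fold change ran from -0.78 to 0.048 for Mcm2 (0.048 without DMSO replicate 4), from -0.16 to 0.61 for Mki67 (negative without DMSO replicate 1, DMSO replicate 2, or SAG replicate 3), and from -0.12 to 0.26 for Pcna (negative without DMSO replicate 2). With plain library size that of Pcna was -0.012. The cause was not tested. Deviations of mice with the same replicate number from their group means correlated at 0.12, 0.02, 0.02, and 0.01. The best correlated SAG-treated mouse had the same number for DMSO replicates 1 and 3 and another number for DMSO replicates 2 and 4. These values cannot decide whether mice were paired, as each group holds only 4. The replicate block left the replication and mitosis genes at 0 called. With 4 mice per group and the spread seen among DMSO-treated mice, the 95% interval left out a doubling for 29 of the 44 members.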
